A study of Mus musculus with 17 samples.

Results

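Heme synthesis and iron handling were described in mouse plasma cell-free RNA (cfRNA) through 6 genes, Alas2, Slc25a37, Fech, Fth1, Ftl1 and Tfrc, chosen by name from the 49585 genes quantified in every library. The mice were C57BL/6J, wild type and 13 weeks old, and came from the MHU-1 mission to the International Space Station (ISS). They were kept in flight in microgravity (MG, 6 mice), in flight on a rotating platform that gives artificial 1-G (AG, 6 mice), or on the ground (GC, 5 mice), with 1 library per mouse. AG and MG share launch, cabin and return, so MG against AG addresses gravity, MG against GC the flight as a whole, and AG against GC the flight other than microgravity. RNA was taken from plasma cleared of cell debris and made into libraries with a small RNA kit. All 6 genes had reads, 4498 in total, and 5 of them passed the expression filter that left 272 genes for testing. Tfrc, with 19 reads in all libraries together, did not pass it.

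Heme is built partly in mitochondria. Alas2 is the erythroid 5-aminolevulinate synthase, which carries out the first and rate-limiting step in developing red cells. Slc25a37 (mitoferrin-1) brings iron into the mitochondria of these cells, and Fech (ferrochelatase) inserts the iron into protoporphyrin in the last step. Iron that is not used is stored in ferritin, a shell made of the heavy chain Fth1, which oxidizes iron, and the light chain Ftl1, which helps to form the iron core. Tfrc, the transferrin receptor, takes up iron from plasma transferrin and is abundant on maturing red cells. Circulating reticulocytes still hold mRNA for globin and heme synthesis, platelets hold mRNA from the megakaryocyte, and ferritin mRNA is made in nearly all cells.

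Several of these mRNAs carry an iron-responsive element (IRE), a short hairpin that is bound by iron regulatory proteins when iron is scarce. An IRE before the coding sequence blocks translation when bound, and IREs after it protect the mRNA from decay. The elements are shown because they set Alas2 and the ferritin chains apart from the uptake receptor by their place in the mRNA, and because only the second kind is known to set mRNA levels. An unpaired C, 5 stem bases, the loop CAGTGN and 5 further stem bases were searched in GENCODE M21 transcripts (GRCm38, the same assembly as mm10), on the transcript strand only. The stem could have at most 1 unpaired position. Alas2, Fth1 and Ftl1 each had 1 match, in the 5′ UTR, and Tfrc had 4, in the 3′ UTR, all with fully paired stems. Of 21877 protein-coding genes, 10.7% had a match and 1.34% had a match with all 5 positions paired. No match was found in Slc25a37 and Fech. Capitals mark the 6-base loop.
Alas2, 5′ UTR: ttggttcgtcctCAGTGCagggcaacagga
Fth1, 5′ UTR: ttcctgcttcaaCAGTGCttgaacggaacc
Ftl1, 5′ UTR: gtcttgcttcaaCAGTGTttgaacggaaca
Tfrc, 3′ UTR, at 32631219: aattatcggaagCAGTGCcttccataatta
Tfrc, 3′ UTR, at 32631598: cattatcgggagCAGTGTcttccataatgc
Tfrc, 3′ UTR, at 32631663: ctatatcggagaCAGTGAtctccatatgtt
Tfrc, 3′ UTR, at 32631710: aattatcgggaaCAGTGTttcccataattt

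Alas2 lies on the plus strand at chrX:150547375-150570638, and its hairpin of 17 bases at chrX:150547464-150547480. The printed Alas2 sequence runs past this into the next exon, as in the spliced transcript. Fth1 lies on the plus strand at chr19:9980598-9985098 with the printed element at chr19:9982732-9982761. Ftl1 lies on the minus strand at chr7:45457944-45459884 with the element at chr7:45459778-45459807. Tfrc lies on the plus strand at chr16:32608920-32632794, and its elements are at chr16:32631219-32631248, chr16:32631598-32631627, chr16:32631663-32631692 and chr16:32631710-32631739. Slc25a37 lies on the minus strand at chr14:69241848-69285112. Fech lies on chromosome 18.

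The libraries were shallow. They held 84657 to 277682 counts each, and 71 to 444 of these came from the 6 genes. A few genes took most counts, and the share of the genes that each held over 5% of all counts was 86.9% to 91.7% in AG, 70.6% to 83.5% in MG and 76.9% to 83.1% in GC. Levels are therefore given as CPM, the counts of a gene scaled to a fixed library total, with TMM factors (TMM CPM), which correct for such dominant genes, and these factors had medians of 0.614 in AG, 1.47 in MG and 1.38 in GC. Some libraries stood apart. The summed liver markers were 3119 TMM CPM in AG replicate 6 and 3884 in MG replicate 6, with 454 or less elsewhere, and the summed platelet markers were lowest in AG replicates 5 and 6, at 281 and 731. GC replicate 4 had a platelet sum of 1314 against 3025 to 3744 in the other GC libraries. No pair of libraries within a group agreed within sampling noise.

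Ranked per length, the ferritin chains led in plasma. On the authors' RPKM scale (reads per gene, scaled to gene length and to mapped reads), the median level over the 17 libraries was 50.7 for Fth1, 9.10 for Ftl1, 3.65 for Alas2, 0.539 for Fech, 0.476 for Slc25a37 and 0.041 for Tfrc. Fth1 was above Ftl1 in 17 of 17 libraries, Ftl1 above Alas2 in 16, and Alas2 above Fech in 17. Fech and Slc25a37 did not keep a fixed order, since Fech was above in 13 of 17 libraries. Slc25a37 was above Tfrc in all 17.

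Alas2, the first enzyme of the pathway, had the highest levels in AG. The level of Alas2 was 219 to 892 TMM CPM in AG (median 343, from 14 to 102 reads), 61.5 to 349 in MG (median 147, from 8 to 43 reads), and 394, 126, 168, 231 and 200.4 in the GC libraries. The means were 405 ± 250 (SD, n = 6) in AG, 163 ± 112 (SD, n = 6) in MG and 224 ± 103 (SD, n = 5) in GC. The groups overlapped. Of the 6 MG libraries 5 were below all AG libraries, while MG replicate 4, at 349, reached into the AG range.

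Slc25a37, the mitochondrial iron importer, had the same order of groups with TMM factors. It was at 63.2 to 227 TMM CPM in AG (median 186, from 11 to 26 reads), 12.3 to 98.8 in MG (median 46.5, from 3 to 13 reads), and 51.1, 40.8, 80.7, 100.3 and 83.5 in the GC libraries. The means were 156 ± 74.3 (SD, n = 6) in AG, 54.6 ± 37.8 (SD, n = 6) in MG and 71.3 ± 24.6 (SD, n = 5) in GC. Of the AG libraries 4 were above every MG and every GC library, and the other 2 lay within both ranges.

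Fech, the last enzyme, rested on 128 reads. It was at 31.6 to 172 TMM CPM in AG (median 81.8), 0 to 122 in MG (median 25.0), and 65.7, 22.2, 18.6, 70.2 and 41.7 in the GC libraries. MG replicate 5 had no Fech read. The means were 90.7 ± 57.4 (SD, n = 6) in AG, 45.2 ± 47.0 (SD, n = 6) in MG and 43.7 ± 23.9 (SD, n = 5) in GC, and the 3 groups overlapped widely.

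Fth1, the ferritin heavy chain, went the other way. It was at 250.1 to 885 TMM CPM in AG (median 700.5, from 16 to 196 reads), 746 to 1221 in MG (median 1119.7, from 93 to 254 reads), and 1131, 1231, 1074, 502 and 1098 in the GC libraries. The means were 624 ± 227 (SD, n = 6) in AG, 1076 ± 182 (SD, n = 6) in MG and 1007 ± 289 (SD, n = 5) in GC. MG was higher than AG in 35 of 36 pairs of libraries, and 4 of 5 GC libraries were above every AG library.

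With TMM factors Ftl1, the light chain, did not follow the heavy chain. Without them its log2 fold change in MG against AG was 1.10 (edgeR), in the direction of Fth1. It was at 230.3 to 587 TMM CPM in AG (median 332), 250.02 to 406 in MG (median 375), and 423, 215, 447, 221 and 305 in the GC libraries. The means were 352 ± 126 (SD, n = 6) in AG, 352 ± 59.9 (SD, n = 6) in MG and 322 ± 109 (SD, n = 5) in GC. The highest Ftl1 level of all, 587, was in AG replicate 6.

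Tfrc, the uptake receptor with the 3′ UTR elements, was close to the limit of detection. It had 8 reads over the 6 AG libraries, 7 over the 6 MG libraries and 4 over the 5 GC libraries, with at most 4 in any one, and 6 of the 17 libraries had none. At this depth a difference in Tfrc was not detectable.

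**Figure D1:**
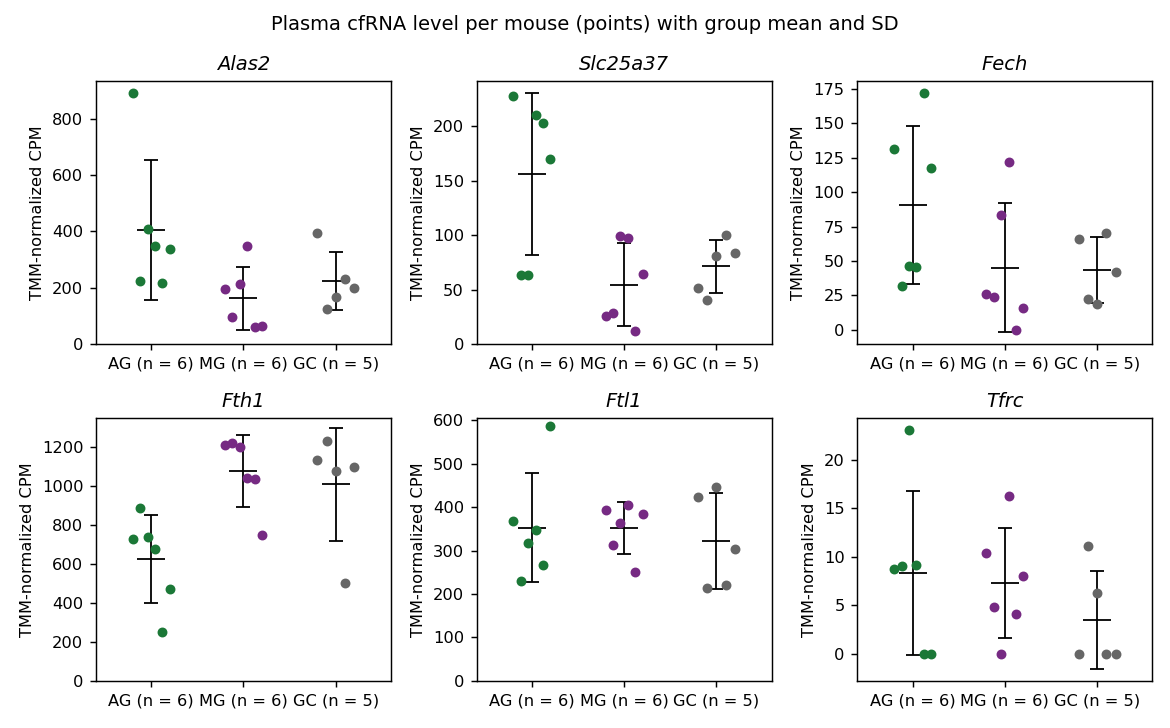
TMM-normalized CPM of the 6 genes (y axis, linear) in AG, MG and GC (x axis), 1 point per mouse, with the group mean and SD as a bar. The 3 erythroid genes Alas2, Slc25a37 and Fech have their highest points in AG, whereas 5 of 6 MG points of Fth1 lie above all AG points.

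The 2 largest fold changes of the 5 tested genes were those of Slc25a37 and Alas2 in MG against AG. In 1 edgeR quasi-likelihood fit over all 17 libraries, Slc25a37 had a log2 fold change of -1.54 (2.90-fold lower in MG, SE 0.50, adjusted p = 0.149) and Alas2 of -1.32 (2.50-fold lower, SE 0.48, adjusted p = 0.217). Fth1 had a log2 fold change of 0.78 (1.71-fold higher in MG, SE 0.35, adjusted p = 0.333, edgeR). Fech had a log2 fold change of -0.996 (SE 0.67, adjusted p = 0.582, edgeR) and Ftl1 of 0.0020 (SE 0.35, adjusted p = 0.997, edgeR). By an adjusted p under 0.05, edgeR called none of the 5 tested genes, beside 0% of the 272 genes. An unadjusted p under 0.05 was found for 3 of the 5 and for 36 of all 272. Without exception the AG and MG values of the 5 genes overlapped, while they did not for 1.84% of the 272. DESeq2 called 1 of the 5, Slc25a37 (log2 fold change -1.54, adjusted p = 0.0493, over its alternatives 0.0493 to 0.476), beside 5.71% of the 210 genes to which it gave an adjusted p. The exact test of edgeR and limma called none of the 5, beside 1.84% and 0% of the 272.

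The study called genes by an unadjusted p under 0.05 with a fold change over 1.5. The study used these cut-offs with a test in CLC Genomics Workbench, and here they are applied to the edgeR fit. A gene that meets them here was not necessarily called by the study. Alas2 and Slc25a37 met this criterion as lower in MG and Fth1 as higher, beside 8.46% of the 272 genes called lower and 4.78% called higher. Neither Alas2 nor Slc25a37 met it without TMM factors or in limma. Slc25a37 met it after leaving out any 1 of the 12 AG and MG libraries. Alas2 met it in 11 of the 12 repeats and missed it without AG replicate 1, its highest library (log2 fold change -0.93, adjusted p = 0.459, edgeR). Fth1 met it in 5 of 12 repeats only, and missed it without AG replicates 4, 5 or 6 or MG replicates 1, 2, 3 or 5. Without both AG libraries lowest in platelet markers, the log2 fold change of Fth1 was 0.46 (adjusted p = 0.531, edgeR), while those of Alas2 and Slc25a37 were -1.53 and -1.42. Fech met the criterion only without MG replicate 4 (log2 fold change -1.58, adjusted p = 0.261, edgeR).

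The size of these differences depended on the scaling between libraries, and the directions of Alas2, Slc25a37 and Fth1 did not. The median log2 fold change of all 272 genes between MG and AG was 0.17 with TMM factors and 1.27 without them. Without TMM factors the log2 fold changes themselves were -0.31 for Alas2, -0.61 for Slc25a37, -0.0024 for Fech, 1.84 for Fth1 and 1.10 for Ftl1, and Fth1 alone of the 5 was called (adjusted p = 0.0182, edgeR), beside 21.3% of the 272 genes. Relative to the median of all 272 genes, Alas2 was at -1.49 with and -1.59 without TMM factors, Slc25a37 at -1.71 and -1.88, Fech at -1.17 and -1.27, and Fth1 at 0.61 and 0.57. Ftl1 was at -0.17 either way.

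In MG against GC, the 5 tested genes lay close together. The log2 fold changes in edgeR were -0.46 (SE 0.50) for Alas2, -0.42 (SE 0.53) for Slc25a37, 0.03 (SE 0.72) for Fech, 0.09 (SE 0.37) for Fth1 and 0.13 (SE 0.36) for Ftl1, each with an adjusted p of 0.994. None met either call rule, beside 0% of all 272 genes by adjusted p and 4.41% by the study's criterion (3.68% higher and 0.735% lower). All 5 had overlapping values, as all but 0.368% of the 272 did, and none of the 5 had an unadjusted p under 0.05 against 12 of all 272. DESeq2, the exact test and limma also called none, and 0% of all genes by each. The standard errors leave room for differences of either sign.

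AG against GC shares the AG libraries with MG against AG, so its values are no independent repeat. Slc25a37 had a log2 fold change of 1.11 (2.16-fold higher in AG, SE 0.52, adjusted p = 0.395, edgeR), and was the only one of the 5 to meet the study's criterion, beside 6.25% of the 272 genes called higher and 5.51% called lower. All 5 had overlapping values, as all but 1.84% of the 272 did. Slc25a37 missed the criterion in 8 of 11 repeats that left out 1 library, which were those without AG replicates 1, 4, 5 or 6 or GC replicates 1, 2, 3 or 5. It met the criterion in 6 of 12 other alternatives. Fth1, which missed it in the main fit, met it in 2 of the 11 repeats and 5 of the 12 others. Alas2 met it in 1 of the 11 and 1 of the 12. Alas2 was at 0.87 (SE 0.50, adjusted p = 0.460, edgeR), Fech at 1.02 (SE 0.71, adjusted p = 0.564, edgeR), Fth1 at -0.68 (SE 0.37, adjusted p = 0.422, edgeR) and Ftl1 at 0.12 (SE 0.37, adjusted p = 0.888, edgeR). By adjusted p none of the 5 was called, beside 1.47% of the 272 genes, and DESeq2, the exact test and limma called none of them, beside 2.99%, 2.57% and 0% of all genes. Without TMM factors the median of all genes was -1.14, Alas2 was at -0.11 and Ftl1 at -0.98, so the sign of both turned with the scaling. None of the 5 was called there either, beside 3.31% of the 272.

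For Tfrc, a wider fit on the 6270 genes with at least 5 reads gave log2 fold changes of -0.47 (SE 1.07, adjusted p = 0.938, edgeR) for MG against AG, 0.56 (SE 1.17, adjusted p = 0.952, edgeR) for MG against GC and 1.02 (SE 1.17, adjusted p = 0.818, edgeR) for AG against GC. All 3 were smaller than their standard errors. In that fit the adjusted p called 0.0957%, 0.159% and 0% of genes in the same order.

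**Figure D2:**
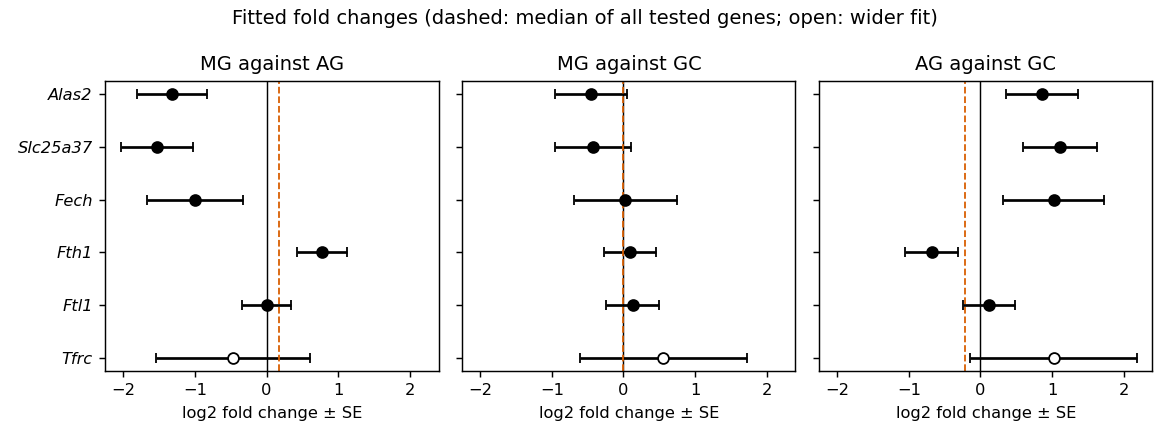
Fitted log2 fold changes (x axis) with SE bars for the 6 genes (y axis) in the 3 comparisons, with the median of all 272 tested genes dashed and Tfrc, open, from the wider fit. Slc25a37 and Alas2 lie lowest in MG against AG, at -1.54 and -1.32, and all 5 tested genes lie within 1 SE of 0 in MG against GC.

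Plasma cfRNA mixes RNA from several cell types, and fewer cells of a type cannot be told apart from less RNA per cell. With TMM factors the summed red cell markers had a higher median in AG than in MG, as the erythroid genes did, and without them the order turned. The 27 of 30 listed markers found in the files, mostly globins by reads, summed to 10331 to 25360 TMM CPM in AG (median 16576), 3041 to 19273 in MG (median 9089) and 6458 to 18880.0 in GC (median 8658). Of the 10 that passed the filter, 6 met the study's criterion as lower in MG than in AG and none as higher, beside 8.46% and 4.78% of the 272 genes, with a median log2 fold change of -1.17 beside 0.17 over all genes. These 6 were Hbb-bt, Slc4a1, Epb41, Bpgm, Ube2o and Rnf10, and none of them had an adjusted p under 0.05 (edgeR). Without TMM factors the sum had a median of 14063 CPM in MG, above 10042 in AG and 10619 in GC, 4 of the 10 markers were higher in MG, and none met the criterion in either direction. The median log2 fold change of the 10 was then -0.066 beside 1.27 over all genes, so that relative to all genes it was -1.34 with and without the factors. In AG against GC, 1 of the 10, Bpgm, was called higher, beside 1.47% of the 272 genes (log2 fold change 1.85, SE 0.46, adjusted p = 0.0335, edgeR). No gene was called in that comparison without GC replicate 1, 2, 3 or 5, with the wider filter or in limma, so the call of Bpgm was lost in each.

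The summed platelet markers, like Fth1, had their lowest group median in AG. All 12 had reads, and they summed to 281 to 2831 TMM CPM in AG (median 2185), 1115 to 3244 in MG (median 2538) and 1314 to 3744 in GC (median 3511). Of the 8 that passed the filter 1 met the criterion in MG against AG, beside 13.2% of the 272 genes. This was Pf4, which had a log2 fold change of 1.09 (SE 0.43, adjusted p = 0.247, edgeR). The median log2 fold change of these 8 was 0.23 beside 0.17 over all genes, and Itgb3 and Gp9 were at -0.32 (SE 0.53) and -0.42 (SE 0.47), although all 8 were positive without TMM factors. Leukocyte markers summed to 94.8 to 297 TMM CPM in AG, 129 to 276 in MG and 89.0 to 273 in GC, and macrophage markers to 5.77 to 271 in AG, 12.3 to 81.1 in MG and 14.6 to 30.1 in GC, with 22 of the 23 Marco reads in AG replicate 1, the library highest in Alas2. The part of any cell type in the differences of the 6 genes was not tested.

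**Figure D3:**
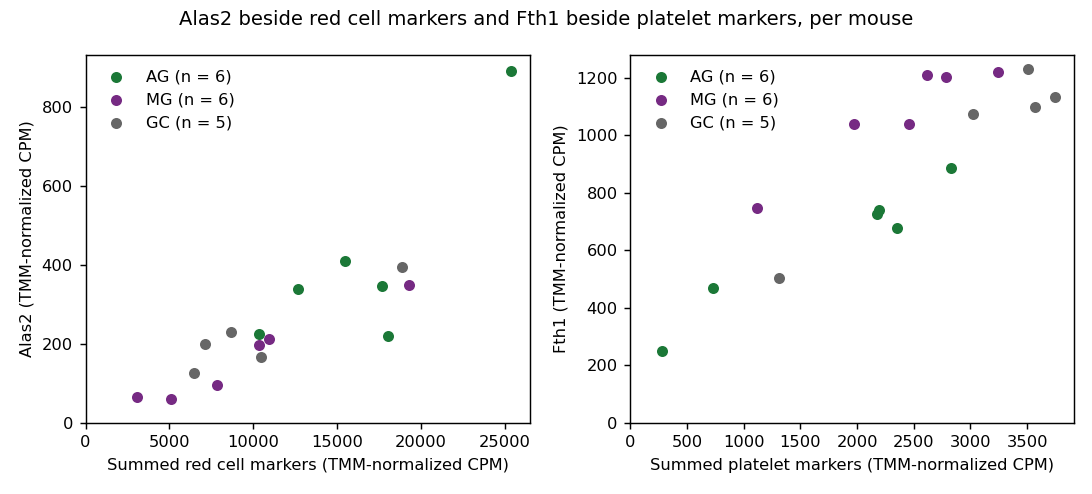
Alas2 against the summed red cell markers (left) and Fth1 against the summed platelet markers (right), both axes in TMM-normalized CPM and linear, 1 point per mouse. AG replicate 1 is highest on both axes on the left, at 25360 and 892, and AG replicates 5 and 6 are low on both axes on the right, at 281 and 731 for the markers.

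Read counts of 2 genes within a library can be divided without any scaling. Per 1000 red cell marker reads, Alas2 had 12.2 to 35.2 reads in AG (median 24.2), 12.1 to 21.1 in MG (median 18.6) and 16.01 to 28.1 in GC (median 20.9). The difference between MG and AG on the log2 scale was -0.42 (two-sided exact permutation test, p = 0.126, adjusted p = 0.314 over 15 tests of 5 genes in 3 pairs). For Slc25a37 it was -0.64 (exact permutation p = 0.266, adjusted p = 0.571) and for Fech -0.60 (exact permutation p = 0.506, adjusted p = 0.709). None of these 3 differences had an exact permutation p under 0.05.

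The ferritin chains had larger differences on that scale. Fth1 had 13.9 to 85.7 reads per 1000 red cell marker reads in AG (median 37.6), 53.9 to 245 in MG (median 136) and 57.9 to 191 in GC (median 103). It was higher in MG than in AG by 1.85 on the log2 scale (exact permutation p = 0.00433, adjusted p = 0.0649), and AG was below GC by a difference of -1.46 (exact permutation p = 0.0152, adjusted p = 0.114). Ftl1 had 14.5 to 46.3 in AG (median 20.1), 21.1 to 127 in MG (median 39.0) and 22.4 to 42.7 in GC (median 33.3), with a difference of 1.03 between MG and AG (exact permutation p = 0.0325, adjusted p = 0.162). With the red cell markers other than globins as the denominator, both passed after adjustment, with 2.19 for Fth1 and 1.36 for Ftl1 (exact permutation p = 0.00216, the smallest possible, adjusted p = 0.0162 for each). This denominator includes Slc4a1, Epb41, Bpgm, Ube2o and Rnf10, which met the study's criterion as lower in MG, while Ftl1 itself had a log2 fold change of 0.0020 (edgeR). The ratio cannot tell higher ferritin reads from lower marker reads. Each denominator was adjusted over its own 15 tests only. Of 16 alternatives for MG against AG, each chain passed in 2 only, the denominator without globins and the repeat without AG replicate 6. In that repeat, with all red cell markers as the denominator, Fth1 was at 1.86 and Ftl1 at 1.26 (exact permutation p = 0.00866 and 0.00649, adjusted p = 0.0433 for each). In AG against GC, Ftl1 passed in 1 of 15 alternatives, the same repeat, at -0.83 (exact permutation p = 0.00794, adjusted p = 0.0433).

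Platelet marker reads were a further denominator, added after the data were seen. Fth1 had 287 to 889 reads per 1000 platelet marker reads in AG (median 335), 376 to 669 in MG (median 447) and 302 to 382 in GC (median 351), and MG differed from AG by 0.16 (exact permutation p = 0.608, adjusted p = 0.729). MG differed from GC by 0.48 (exact permutation p = 0.00649, adjusted p = 0.0812). Alas2 had 79.7 to 778 in AG (median 298), 25 to 177 in MG (median 66.5) and 35.9 to 176 in GC (median 56.1), with a difference of -2.12 between MG and AG (exact permutation p = 0.0108, adjusted p = 0.0812). Ftl1 turned its sign, to -0.67 between MG and AG (exact permutation p = 0.331, adjusted p = 0.497). Fth1 had 889 in AG replicate 5, 669 in MG replicate 6 and 643 in AG replicate 6, its 3 highest values, and AG replicates 5 and 6 had 18 and 56 platelet marker reads.

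**Figure D4:**
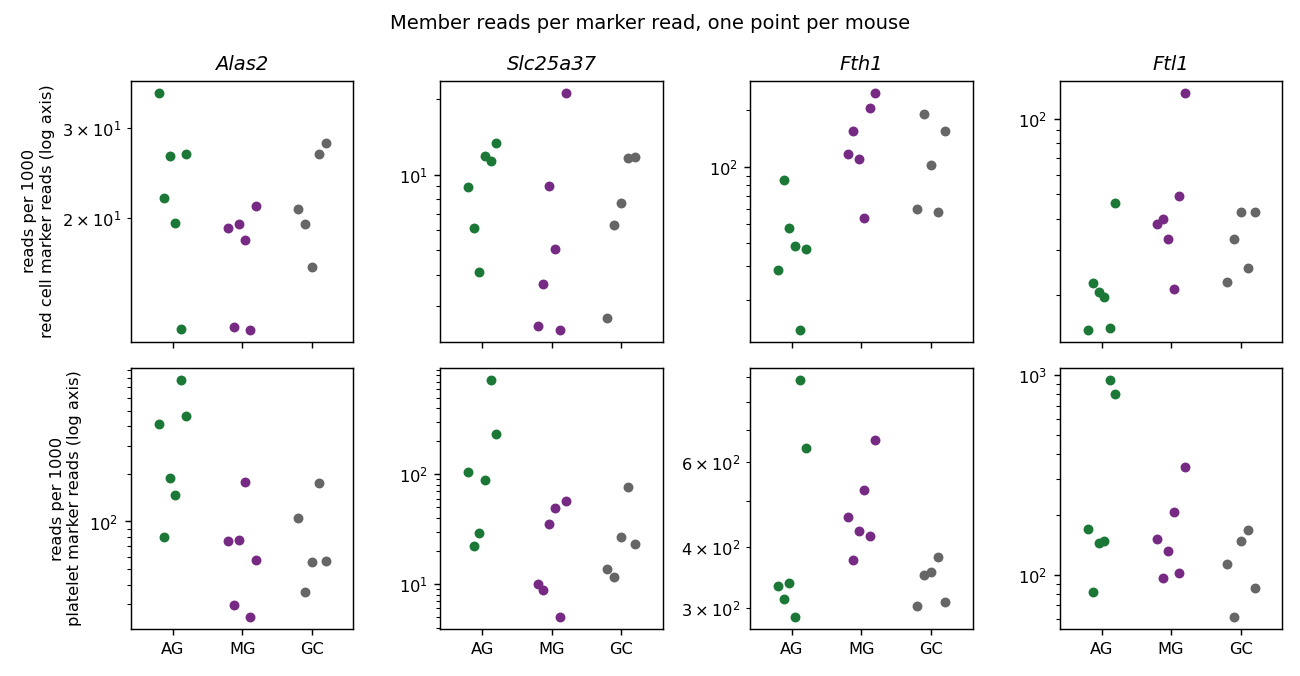
Reads of 4 genes per 1000 red cell marker reads (top) and per 1000 platelet marker reads (bottom), on log axes, 1 point per mouse in AG, MG and GC. Fth1 medians per red cell marker read are 37.6 in AG and 136 in MG, and the high AG points per platelet marker read are replicates 5 and 6.

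Reads of the members were also set against each other. Fth1 reads per Alas2 read ran from 0.814 to 3.92 in AG (median 1.59), from 2.98 to 16.9 in MG (median 8.88) and from 2.17 to 9.76 in GC (median 5.48). AG replicate 1 alone had more Alas2 than Fth1 reads. Fth1 reads per Ftl1 read, heavy to light chain, ran from 0.8 to 3.84 in AG (median 1.96), from 1.94 to 4.15 in MG (median 3.18) and from 2.27 to 5.72 in GC (median 2.67). Slc25a37 reads per Alas2 read had medians of 0.39 in AG, 0.290 in MG and 0.417 in GC with overlapping ranges. These ratios are given without a test.

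Across the 17 libraries, which share depth differences and dominant genes, the levels of the erythroid members were positively correlated with each other and negatively with Fth1. Spearman's rho on log2 TMM CPM was 0.777 for Alas2 and Fech, 0.738 for Slc25a37 and Fech, and 0.569 for Alas2 and Slc25a37, while against Fth1 it was -0.694 for Slc25a37, -0.488 for Fech and -0.449 for Alas2 (Pearson's r -0.65, -0.55 and -0.25). For the ferritin chains Fth1 and Ftl1 it was -0.0049. Among all other tested genes, the closest to Alas2 were Epb41, of the red cell membrane skeleton (rho 0.912), Fam46c (0.890) and Hba-a2, an alpha globin (0.880). Slc25a37 was closest to Pabpc1, a poly(A)-binding protein (0.858), Mkrn1 (0.797) and Dcaf12 (0.787), and Fech to Fam46c (0.895), Pabpc1 (0.880) and Dcaf12 (0.826). Fth1 was closest to Ctla2a (0.931) and to the platelet chemokines Ppbp (0.814) and Pf4 (0.809), whereas Ftl1 was closest to Lyz2, the myeloid lysozyme (0.748), Rps29 (0.721) and Litaf (0.667).

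The rest of the pathway was mostly below the test's reach. Of 9 heme synthesis enzymes 7 had a read, but only Alas2 and Fech passed the filter. Alas1, the form of the first enzyme used outside red cells, had 13 reads in all, and Urod, a later enzyme, had 12. Of 17 genes of mitochondrial iron and heme transport and Fe-S assembly 15 had a read, and Slc25a37 and Isca1 were tested. Isca1, a Fe-S assembly factor, had 103 reads and log2 fold changes of -0.06 (SE 0.74, adjusted p = 0.985, edgeR) in MG against AG, 0.70 (SE 0.81) in MG against GC and 0.76 (SE 0.82) in AG against GC. Slc25a39, a mitochondrial carrier, had 67 reads, and Slc25a28, the mitoferrin of other tissues, had none.

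Of 27 genes of iron uptake, storage, export and control 25 were in the files, 21 had a read, and the 2 ferritin chains were tested. Ncoa4, the receptor that delivers ferritin to breakdown, had reads in all 17 libraries, 70 in total with 33 in AG, 17 in MG and 20 in GC. Pcbp2, an iron chaperone, also had reads in all 17, with 20, 16 and 20 in the same order. The iron regulatory proteins Aco1 and Ireb2 had 10 and 17 reads. Slc40a1 (ferroportin), the iron exporter, had 9 reads, of which 7 were in AG. Of 14 genes of heme export, scavenging and breakdown 12 were in the files and all of these had a read. Lrp1, the receptor for heme bound to hemopexin, was tested and had 211 reads, with log2 fold changes of 0.55 (SE 0.63, adjusted p = 0.777, edgeR) in MG against AG, 0.97 (SE 0.66) in MG against GC and 0.41 (SE 0.68) in AG against GC. Hmox1, the inducible heme oxygenase, had 4 reads. None of the tested genes in these 4 lists passed an adjusted p of 0.05 in edgeR in any of the 3 comparisons, and Isca1 and Lrp1 did not meet the study's criterion. In the wider fit, 25 further list genes below the filter had values, and none was called by adjusted p in edgeR (lowest 0.313). The study's criterion was met by Tmprss6 as higher in MG against AG, by Trf, Hp, Hpx and Abcg2 as higher in MG against GC, and by Cpox as lower and Fbxl5 and Hpx as higher in AG against GC, which is 1, 4 and 3 of the 25, beside 13.1%, 13.6% and 12.2% of the 6270 genes. These 7 genes are named because of their values, and 4 of them rest on few reads. Tmprss6 had 0 in AG, 6 in MG and 3 in GC, Abcg2 had 1, 7 and 0, Cpox 0, 2 and 3, and Fbxl5 7, 4 and 0.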

How the data were processed

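Plasma cfRNA of 17 mice (6 AG, 6 MG, 5 GC) was analysed. CLC Genomics Workbench with the mm10 genome was used by the authors for mapping. The deposited count is the number of reads of each of 49585 genes before normalization, and RPKM and TPM values stand beside it. For 579 genes, none of them a member or list gene, RPKM was above 0 with no count in any library, so the count column does not hold all reads behind RPKM. The deposited RPKM values are scaled by the authors' software to gene length and mapped reads, and were used for levels between genes and for limma. The deposited TPM values were not used. The treatment of multiply matching reads and the strand setting are not given in the sources used here. Ferritin has processed copies in the genome, and reads of Fth1 and Ftl1 could be split with them; the 5 ferritin pseudogene rows held 0 reads.

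Counts were tested with edgeR 4.0.16 in R 4.3.3 (glmQLFit and glmQLFTest, TMM factors, filterByExpr), with all 17 libraries in 1 fit without covariates and Benjamini-Hochberg adjustment over 272 genes. SE is the fold change divided by the square root of F. TMM CPM uses the counts in these 272 genes as library size. Tfrc was taken from a fit on the 6270 genes with at least 5 reads. Ratios used 0.5 added to each count and two-sided exact permutation tests over all splits of the mice. The smallest possible p of these tests is 0.00216, both for 6 against 6 mice and for 6 against 5. Alternatives were no TMM factors, RLE factors, leaving out genes above 5% of counts, the wider filter, DESeq2 1.42.0, edgeR's exact test, limma 3.58.1 on log2(RPKM + 1) or log2(RPKM + 0.1), only the 2 groups compared, a replicate block, leaving out each library, and other denominators. Replicate numbers were not used to pair mice.

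The 6 genes, the lists and the markers were chosen with earlier results of these data known. Named genes were the members, list genes that passed the filter, list genes below it by their reads, and the 3 other tested genes with the highest Spearman correlation to each member. Counting error alone covers no PCR duplicates.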

Additional observations from a re-analysis of the deposited data

Results flagged for a closer look

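Single libraries stood apart from the rest of their group in 2 of 18 groups of values (6 genes by 3 conditions). Chance would give about 0.9 such cases in 18. Alas2 in AG replicate 1 was at 892 TMM CPM, from 102 reads, above all other AG libraries, and this library also had the highest sum of red cell markers, 25360 TMM CPM. Fth1 in GC replicate 4 was at 502 TMM CPM, from 50 reads, below all other GC libraries, and this library had the lowest GC sum of platelet markers, 1314 TMM CPM. The part of these markers in both values was not tested.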

How the results depend on the processing

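The directions of Alas2, Slc25a37, Fech and Fth1 in MG against AG, of Slc25a37, Fech and Fth1 in AG against GC and of Alas2 and Slc25a37 in MG against GC were the same in all alternatives run, although without TMM factors Fech in MG against AG was at -0.0024 in place of -0.996. Over all 6 genes, 374 of 411 alternative fold changes kept direction and side of the threshold, 35 turned sign and 2 newly passed it. Without TMM factors the log2 fold change of Fth1 in MG against AG was 1.84 (adjusted p = 0.0182, edgeR), beside 21.3% of the 272 genes called and a median of 1.27 over all of them, and with DESeq2 that of Slc25a37 was -1.54 (adjusted p = 0.0493), beside 5.71% of 210 genes. The cause was not tested.

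Values that turned sign were as follows. In AG against GC, Alas2 was at -0.11 without TMM factors and at -0.03 (-0.0271 and -0.0306) by limma with 1 or 0.1 added, and Ftl1 was at -0.98 without TMM factors, -0.17 with the wider filter, -0.65 and -0.68 by limma and -0.0081 without both liver-rich libraries. In MG against AG, Ftl1 was at -0.072 without genes above 5%, and Tfrc at 0.49 without TMM factors. In MG against GC, Fech was at -0.0032 with RLE factors, -0.11 with the wider filter and -0.27 and -0.76 by limma, Fth1 at -0.040 with the wider filter and -0.26 and -0.25 (-0.256 and -0.254) by limma, and Ftl1 at -0.22 (-0.217 and -0.218) by limma. Leaving out single libraries gave -0.077 to 0.27 for Ftl1 in AG against GC, -0.10 to 0.20 for Ftl1 and -0.71 to 0.17 for Tfrc in MG against AG, and -0.56 to 0.33 for Fech and -0.075 to 0.18 for Fth1 in MG against GC.

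Of 230 alternative ratios per red cell marker read, 213 kept direction and side, 12 turned sign and 5 newly passed. Without globins Alas2 was at -0.21 and Fech at -0.054 in AG against GC. Per platelet marker read Fth1 was at 0.33 and Ftl1 at 1.18 in AG against GC, and Ftl1 at -0.67 in MG against AG. Leaving out single libraries gave -0.078 to 0.22 for Alas2, -0.060 to 0.46 for Fech and -0.078 to 0.47 for Slc25a37 in AG against GC, and -0.85 to 0.010 in MG against AG and -0.66 to 0.21 in MG against GC for Fech.

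The counts of all genes that the members are read against moved more. With adjusted p under 0.05 the count for AG against GC went from 4 to 9 without TMM factors, 8 with DESeq2, 7 with the exact test, 0 with the wider filter and with limma, and 7 without the liver-rich or the platelet-poor libraries, and from 0 to 7 on leaving out 1 library. For MG against AG it went from 0 to 58 without TMM factors, 6 with the wider filter, 12 with DESeq2 and 5 with the exact test, and from 0 to 10 on leaving out 1 library. For MG against GC it was 10 with the wider filter and 0 to 1 on leaving out 1 library. By the study's criterion AG against GC had 113 genes without TMM factors (4 higher, 109 lower, against 17 and 15 with them), 764 with the wider filter, 49 with limma and 20 to 45 on leaving out 1 library. MG against AG had 132 without TMM factors (132 higher, 0 lower, against 13 and 23), 819 with the wider filter and 17 or 18 with limma. MG against GC had 854 with the wider filter, 7 and 9 with limma and 6 to 21 on leaving out 1 library.

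The correlation of deviations between mice with the same replicate number ran from -0.47 to 0.59. It was over 0.1 in 4 of 6 pairs in MG against AG, 1 of 5 in MG against GC and 2 of 5 in AG against GC, and was 0.46, 0.59 and 0.48 for number 1. Not every pair was over 0.1, nor did every mouse correlate best with its own number, so the number was not used for pairing. With the number as a replicate block, the count for MG against AG was 3 in place of 0, Tfrc was at 0.091 in MG against AG and Fech at -0.028 in MG against GC. No call of the 5 tested genes by adjusted p changed under the block.

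Depth limited the values. Fech and Slc25a37 rested on 128 and 208 reads over all libraries. The SEs come from the edgeR fit over all 17 libraries and include counting noise, so they are not the spread between mice alone.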

Other observations

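Reads of 4 plasma iron and heme carriers, Trf, Hp, Hpx and Cp, came mostly from the 2 libraries richest in liver markers. Trf (transferrin), which carries iron in plasma, had 127 reads, of which 42 were in MG replicate 6 and 29 in AG replicate 6, and the other libraries had 0 to 8. Hp (haptoglobin), which binds free hemoglobin, had 52 reads with 23 and 6 in the same libraries. Hpx (hemopexin), which binds free heme, had 19 reads with 8 and 6, and Cp (ceruloplasmin), which oxidizes iron for transferrin, had 51 with 16 and 11. These libraries held 55.9%, 55.8%, 73.7% and 52.9% of the reads of the 4 genes. They held 2.86% of the reads of Ncoa4, none of the 103 reads of Isca1, and none of the 9 reads of Tmprss6 and the 3 of Hamp, which are also hepatic. The summed liver markers were 3884 TMM CPM in MG replicate 6 and 3119 in AG replicate 6, and their part in these reads was not tested. None of the 4 genes passed the expression filter. In the wider fit, Trf and Hp had log2 fold changes of 1.90 (SE 0.74) and 2.22 (SE 0.88) in MG against GC (adjusted p = 0.313 for each, edgeR), with 42 of the 69 MG reads of Trf and 23 of the 32 of Hp in MG replicate 6. Hpx had 9 reads in AG, 10 in MG and none in GC. Cp was at 0.24 (SE 0.82) in MG against GC.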
